A study of Mus musculus with 8 samples.

Results

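Cholesterol is assembled in most animal cells from acetyl-CoA, and the RNA of 31 genes that make it, control it, bring it in or send it out was followed here in mouse breast cancer cells. The genes were taken by symbol from a list grouped by role: 7 enzymes of the mevalonate and isoprenoid steps, 11 enzymes of the squalene and sterol steps, 4 genes of sterol sensing, and 9 genes of transport, storage, export and the liver X receptors. Each symbol matched 1 of the 55450 gene identifiers in the counts, and 28 of the 31 genes were abundant enough to be tested, among 14641 tested in all.

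The cells were PyMT-1099, a mouse mammary tumour line of epithelial origin, sequenced as polyA RNA in 8 libraries, 2 from each of 4 groups. The groups were parental PyMT-1099 left untreated, parental PyMT-1099 given TGF-β, PyMT-1099 AGPS KO left untreated, and PyMT-1099 AGPS KO given TGF-β. TGF-β, a growth factor that drives epithelial cells toward a mesenchymal state, was used at 2 ng/ml for 10 days. Agps encodes a peroxisomal enzyme of ether lipid synthesis. All 4 groups were grown in high glucose medium with fetal bovine serum, which itself contains lipoprotein cholesterol. The 4 knockout libraries carry the same line name, so the effect of losing Agps and other differences between this line and the parental cells cannot be told apart. Nothing in the labels ties the 2 libraries of a group to separate cultures. A p-value here therefore speaks only of library-to-library spread, possibly a technical one. Lack of overlap between groups of 2 libraries is given below as a description and not as support. Its share over all tested genes was not computed. Members that were not called also showed it, as Hsd17b7 and Nr1h2 did with TGF-β in both lines.

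In the mevalonate pathway, acetyl-CoA is built up through mevalonate into isoprenoid units, which are joined to squalene, closed into lanosterol and trimmed to cholesterol. When sterols run low in the endoplasmic reticulum, the escort protein Scap carries the transcription factor SREBP2, encoded by Srebf2, to the Golgi, where it is cut and released to switch on the genes of this pathway. Insig proteins hold Scap back when sterols are plentiful, while oxysterols activate the liver X receptors, which raise the exporters Abca1 and Abcg1 and the ubiquitin ligase Mylip.

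Libraries held 17007268 to 21311831 counts, and all levels below are CPM, counts scaled to each library's TMM-adjusted total. Agps itself was at 330 and 357 CPM in untreated parental, 265 and 266 in treated parental, 29.3 and 32.9 in untreated knockout and 35.6 and 43.9 in treated knockout cells, so its level went with the labels. Mitochondrially encoded genes took 2.36% to 4.31% of counts. The summed level of 6 epithelial markers was 4177 to 4574 CPM in untreated and 2799.9 to 2959 in treated parental cells, and 3104 to 3246 and 3106 to 3297 in the knockout cells, with Epcam and Cldn7 without a count in all 8 libraries. Most of that sum was Krt8 and Krt18, and Cdh1 held 582 and 702 CPM of it in untreated parental cells. With TGF-β, Krt8 fell 1.4-fold and Krt18 1.34-fold in parental cells. In knockout cells their log2 changes were 0.16 and 0.12. The knockout response minus the parental one was 0.65 for Krt8 (adjusted p = 0.046, edgeR quasi-likelihood test) and 0.54 for Krt18 (adjusted p = 0.0621). The other detected markers moved in opposite directions with TGF-β. Cdh1 fell 4.80-fold in parental and 5.77-fold in knockout cells, and Krt14 rose 13.9-fold and 32.2-fold from under 0.5 CPM. The 3 endothelial markers summed to 1.29 to 1.58 CPM in untreated and 76.5 in treated parental cells. In knockout cells they summed to 0.464 to 0.773 and 6.71 to 8.24 CPM, and in treated cells of both lines most was Cdh5. The 3 immune markers summed to 1.05 to 2.11 CPM in untreated and 6.68 to 7.69 in treated parental cells and to 2.13 to 2.99 and 10.3 to 12.4 in knockout cells, mostly Cd68, which rose 4.59-fold and 4.62-fold. The 3 fibroblast markers reached at most 3.64 CPM, nearly all Pdgfra, which rose 8.45-fold and 40.5-fold from about 0.1 CPM or less, and the 3 adipocyte markers at most 0.222. Whether these shifts have a part in the sterol results was not tested, and in RNA from bulk cultures fewer cells of a type and less RNA per cell cannot be told apart.

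Promoter sequence is shown for 4 members at the head of the pathway or in its control. All 4 fell with TGF-β in both lines, but so did members not printed, among them Pmvk, Mvd, Idi1 and the first enzyme, Acat2. A RefSeq window around the start site (GRCm38.p6) was matched for 25 of the 31 genes, and the 250 bases before the start are printed, 5′ to 3′ on the gene's strand. Capitals mark matches on either strand to any of 3 motifs: the sterol regulatory element TCACNCCAC, its looser core CACNCCA, which lies within it, and the CCAAT box, read ATTGG on the reverse strand.
Hmgcs1, chr13:119690101-119690350, plus strand: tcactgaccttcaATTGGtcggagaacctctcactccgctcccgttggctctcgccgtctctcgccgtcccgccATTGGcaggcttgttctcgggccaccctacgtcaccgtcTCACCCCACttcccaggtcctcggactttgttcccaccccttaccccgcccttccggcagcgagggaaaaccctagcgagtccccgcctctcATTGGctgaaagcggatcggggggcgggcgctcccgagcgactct
Mvk, chr5:114444019-114444268, plus strand: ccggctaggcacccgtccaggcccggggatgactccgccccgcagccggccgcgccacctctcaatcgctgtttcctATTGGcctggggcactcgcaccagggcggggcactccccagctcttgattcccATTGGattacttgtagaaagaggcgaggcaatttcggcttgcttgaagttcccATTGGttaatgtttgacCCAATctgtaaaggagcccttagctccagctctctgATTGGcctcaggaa
Insig1, chr5:28071162-28071411, plus strand: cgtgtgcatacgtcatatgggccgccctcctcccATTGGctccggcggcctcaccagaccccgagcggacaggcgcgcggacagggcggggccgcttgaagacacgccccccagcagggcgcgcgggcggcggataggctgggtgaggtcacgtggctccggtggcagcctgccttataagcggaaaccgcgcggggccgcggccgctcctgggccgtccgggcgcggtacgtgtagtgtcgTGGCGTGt
Srebf2, chr15:82147019-82147268, plus strand: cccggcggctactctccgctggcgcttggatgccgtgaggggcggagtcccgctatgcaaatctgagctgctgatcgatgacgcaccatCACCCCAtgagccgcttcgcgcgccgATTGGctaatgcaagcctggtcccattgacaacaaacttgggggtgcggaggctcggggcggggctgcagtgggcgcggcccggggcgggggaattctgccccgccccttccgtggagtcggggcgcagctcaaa

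The Hmgcs1 sequence holds the only full match to the sterol regulatory element among the 25 genes, TCACCCCAC, at position -137 from the start, and CCAAT boxes at -237, -176 and -45. The Mvk sequence holds 5 CCAAT boxes and neither sterol motif. In Insig1 a CCAAT box lies at -216 and the looser core, on the reverse strand, at -8. Srebf2 holds the looser core at -161 and a CCAAT box at -135. Over the whole windows, 50 bases past the start included, a CCAAT box was found in 20 of 25 member genes (80%) and in 41.1% of all 27025 genes with a window. Of the 15 synthesis enzymes with a window 14 held one (93.3%), Acat2 being the exception, against 6 of the 10 other members. The looser core was found in 7 of 25 (28%) against 20.6% of all genes, and the full element in 1 of 25 (4%) against 1.44%. These matches describe letters in a window and are not evidence of binding. Fdps, Fdft1, Sqle, Stard4, Npc1 and Abcg1 had no matched window.

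Reads of some members may be shared with other loci, and whether counting used strand is not stated in the labels. In GENCODE M21 on GRCm38, 39.1% of the 50-base stretches of Acat2 also occur in its paralog Acat3, 26.2% of those of Fdps, 17.7% of Idi1, 9.87% of Tm7sf2 and 9.38% of Fdft1 occur in other genes or pseudogenes. Opposite-strand genes cover 18.3% of the exonic bases of Fdft1, 13.2% of Scap, 12.1% of Hmgcs1 and 9.22% of Idi1, and same-strand genes cover 26.7% of Fdps and 12.1% of Tm7sf2. Values of these genes are uncertain to that extent.

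**Figure D1:**
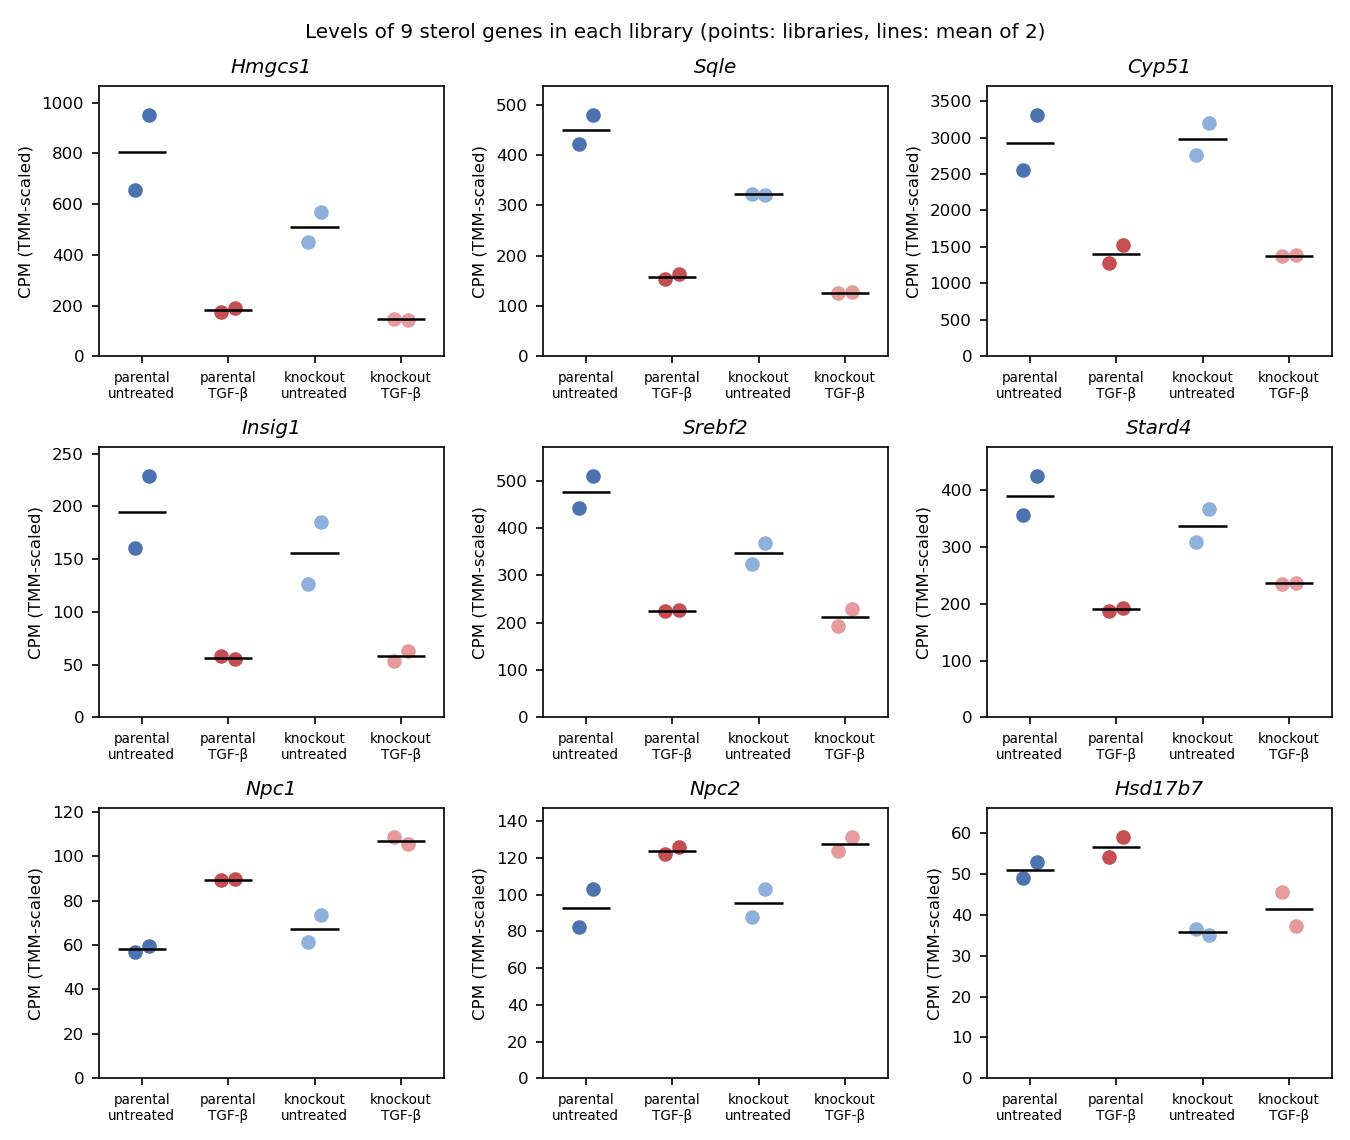
Levels of 9 members in CPM (vertical axes, from 0) in the 4 groups, with 1 point per library and a line at the mean of the 2. Treated libraries of both lines sit below untreated ones for Hmgcs1, Sqle, Cyp51, Insig1, Srebf2 and Stard4 and above them for Npc1, Npc2 and Hsd17b7.

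The first comparison asked what TGF-β did to sterol gene RNA in parental cells. Of the 18 synthesis enzymes 17 fell and none rose by edgeR's quasi-likelihood test at a Benjamini-Hochberg adjusted p under 0.05, and their median log2 fold change was -1.10. Over all 28 tested members 20 fell and 2 rose, with a median of -0.98. Of all 14641 tested genes 21.2% fell and 21.3% rose (42.5% called), with a median of 0.0080. In knockout cells 16 of the 18 enzymes fell, with a median of -0.79, and among the 28 members 19 fell and 4 rose. There 20.6% of all tested genes fell and 20.9% rose (41.4% called). Members below the count limit, Abca1, Abcg1 and Mylip, are described at the end of this comparison and are in none of these counts.

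Summed over the 18 enzymes, parental cells had 4867 and 6353 CPM untreated and 2329 and 2640 with TGF-β. Knockout cells had 4464 and 5182 CPM untreated and 2273 and 2311 treated. Each treated library lay below each untreated one, and the untreated parental libraries stood farthest apart from each other. The group means were 5610.1 ± 1050 CPM (SD, n = 2) and 2484 ± 219.8 in parental cells, and 4823 ± 508 and 2292 ± 27.3 in knockout cells. Treated cells thus held 44.3% of the untreated sum in parental and 47.5% in knockout cells. Cyp51 contributes the most counts to this sum, and the sum is therefore weighted toward it.

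**Figure D2:**
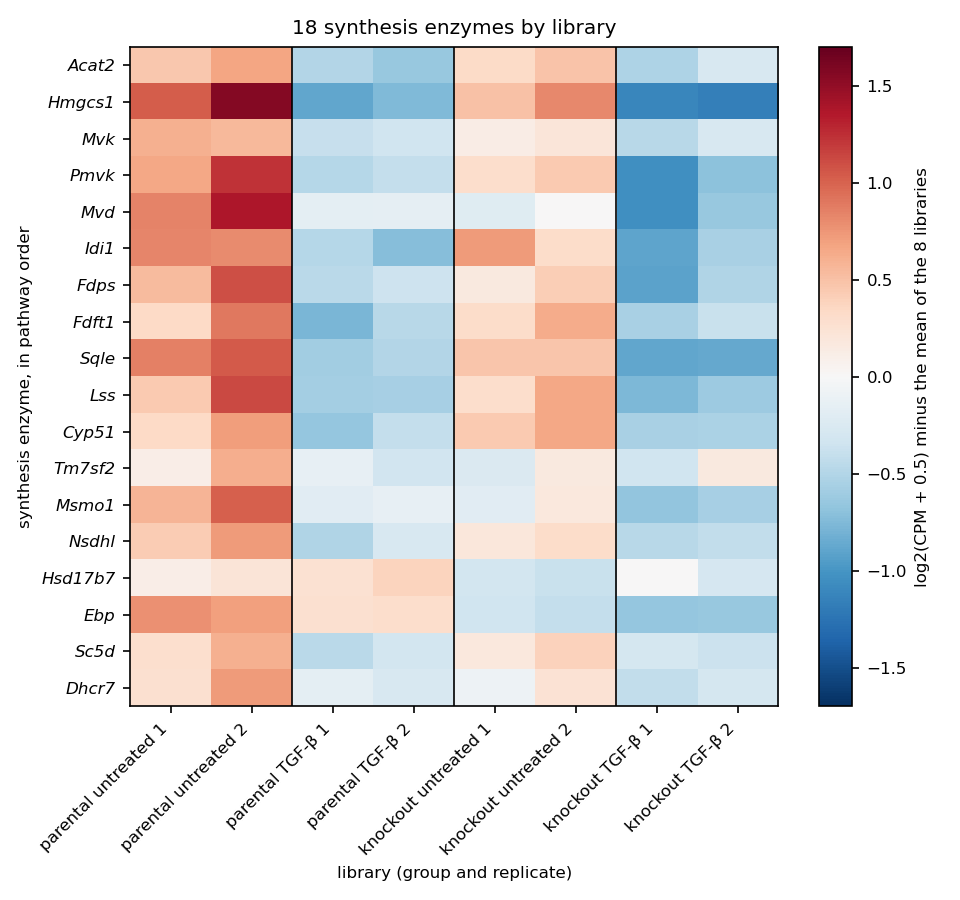
Level of each synthesis enzyme in each library relative to that enzyme's mean over the 8 libraries, as log2(CPM + 0.5) differences shown by colour, with enzymes in pathway order and libraries by group. For most enzymes the untreated columns are above the mean (red) and the treated ones below it (blue), while the Ebp and Hsd17b7 lines are red in all 4 parental columns.

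The 7 enzymes of the mevalonate and isoprenoid steps all fell with TGF-β in both lines, with medians of -1.32 on the log2 scale in parental and -1.04 in knockout cells. Acat2, the thiolase that joins acetyl-CoA units, was at 85.3 and 98.8 CPM in untreated and 43.9 and 39.6 in treated parental cells, and 77.7 and 87.3 in untreated and 43.02 and 51.3 in treated knockout cells. Treated libraries lay below untreated ones in both lines with no overlap. Its log2 change was -1.14 ± 0.12 (SE, adjusted p = 1.57e-05) in parental and -0.81 ± 0.12 (SE, adjusted p = 2.14e-04) in knockout cells.

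Hmgcs1 (chromosome 13, 119690379 to 119708260, plus strand) encodes the HMG-CoA synthase, and its fall was the largest of the members tested in both lines. It stood at 657 and 952 CPM in untreated and 173 and 191 in treated parental cells, and 452 and 567 in untreated and 149 and 144 in treated knockout cells. The treated libraries were close together and far below the untreated ones, which differed among themselves in the parental line. The change was -2.14 ± 0.16 (SE, adjusted p = 9.62e-07), a 4.42-fold lower level, in parental cells and -1.80 ± 0.16 (SE, adjusted p = 3.47e-06) in knockout cells.

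Mvk and Pmvk encode the kinases that phosphorylate mevalonate in turn. Mvk was at 23.5 and 22.6 CPM in untreated and 11.6 and 11.98 in treated parental cells, and 16.8 and 17.8 in untreated and 10.9 and 12.6 in treated knockout cells. Pmvk was at 23.6 and 35.1 CPM in untreated and 10.4 and 11.02 in treated parental cells, and 18.3 and 20.2 in untreated and 6.88 and 8.92 in treated knockout cells. For both genes every treated library was lower than every untreated library of its line. Mvk changed by -0.97 ± 0.13 (SE, adjusted p = 8.80e-05) in parental and -0.55 ± 0.13 (SE, adjusted p = 0.00447) in knockout cells, and Pmvk by -1.45 ± 0.19 (SE, adjusted p = 9.32e-05) and -1.29 ± 0.20 (SE, adjusted p = 2.81e-04).

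Mvd, the decarboxylase that yields isopentenyl diphosphate, was at 33.4 and 48.5 CPM in untreated and 16.3 and 16.5 in treated parental cells, and 15.9 and 18.6 in untreated and 8.70 and 11.6 in treated knockout cells. Groups did not overlap within a line, and the untreated knockout libraries were about as low as the treated parental ones. TGF-β changed Mvd by -1.32 ± 0.19 (SE, adjusted p = 1.48e-04) in parental and -0.77 ± 0.20 (SE, adjusted p = 0.00820) in knockout cells. The knockout call was lost without replicate 1 of the treated knockout cells (-0.57, adjusted p = 0.102).

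Idi1, the isomerase that balances the isoprenoid units, was at 6.01 and 5.92 CPM in untreated and 2.12 and 1.73 in treated parental cells, and 5.55 and 4.04 in untreated and 1.47 and 2.00 in treated knockout cells. Counts were low for this gene, and the treated and untreated libraries still did not overlap. Its changes were -1.62 ± 0.25 (SE, adjusted p = 2.86e-04) in parental and -1.47 ± 0.25 (SE, adjusted p = 6.22e-04) in knockout cells. Fdps, which joins the units to farnesyl diphosphate, was at 20.4 and 30.2 CPM in untreated and 9.96 and 10.8 in treated parental cells, and 15.7 and 18.8 in untreated and 7.18 and 9.59 in treated knockout cells. Treated libraries were again the lower ones in each line, with log2 changes of -1.28 ± 0.20 (SE, adjusted p = 3.48e-04) and -1.04 ± 0.21 (SE, adjusted p = 0.00166).

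From squalene onward 10 of 11 enzymes fell in parental cells, with a median log2 change of -0.98, and 9 of 11 fell in knockout cells, with a median of -0.62. Fdft1, the squalene synthase, was at 77.00 and 113 CPM in untreated and 35.2 and 43.9 in treated parental cells, and 75.8 and 94.7 in untreated and 41.5 and 46.7 in treated knockout cells. Its treated libraries were lower without overlap, with log2 changes of -1.27 ± 0.18 (SE, adjusted p = 1.67e-04) in parental and -0.95 ± 0.18 (SE, adjusted p = 0.00117) in knockout cells.

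Sqle, the squalene epoxidase and a rate-limiting step of the later pathway, was at 421 and 479 CPM in untreated and 153 and 164 in treated parental cells, and 322 and 320.4 in untreated and 125 and 127 in treated knockout cells. Replicates lay close together in each group, and no groups compared overlapped. The changes of -1.51 ± 0.09 (SE, adjusted p = 1.23e-07) and -1.35 ± 0.09 (SE, adjusted p = 2.82e-07) had the lowest adjusted p-values of the members tested. Lss, which closes squalene epoxide into lanosterol, was at 103 and 165 CPM in untreated and 50.5 and 51.2 in treated parental cells, and 93.6 and 119 in untreated and 44.6 and 49.2 in treated knockout cells. The untreated parental libraries were far apart, yet both exceeded the treated ones. It changed by -1.396 ± 0.19 (SE, adjusted p = 1.07e-04) in parental and -1.18 ± 0.19 (SE, adjusted p = 3.57e-04) in knockout cells.

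Cyp51, the lanosterol demethylase, was at 2553 and 3309 CPM in untreated and 1276 and 1521 in treated parental cells, and 2759 and 3193 in untreated and 1380.1 and 1385 in treated knockout cells. The lines had overlapping levels both untreated and treated, and treatment separated them without overlap. Its change was -1.07 ± 0.14 (SE, adjusted p = 6.37e-05) in parental and -1.11 ± 0.14 (SE, adjusted p = 4.60e-05) in knockout cells. Msmo1, the methylsterol oxidase that acts later, was at 362 and 490.3 CPM in untreated and 213 and 219.9 in treated parental cells, and 212 and 275 in untreated and 153 and 164 in treated knockout cells. Treated libraries were lower in each line, with a change of -0.98 ± 0.15 (SE, adjusted p = 2.40e-04) and -0.62 ± 0.15 (SE, adjusted p = 0.00509). Without replicate 1 of the treated knockout cells the second call was lost (-0.57, adjusted p = 0.0574).

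Nsdhl, the dehydrogenase of sterol demethylation, changed by -0.98 ± 0.12 (SE, adjusted p = 4.14e-05) in parental and -0.70 ± 0.12 (SE, adjusted p = 4.82e-04) in knockout cells. Sc5d, a sterol desaturase, changed by -0.84 ± 0.12 (SE, adjusted p = 1.54e-04) and -0.62 ± 0.12 (SE, adjusted p = 0.00120). In all 8 libraries Nsdhl and Sc5d ranged from 77.4 to 183 and from 92.5 to 193 CPM, treated below untreated in each line. Dhcr7, the reductase of the last step of one branch, ranged from 38.9 to 86.4 CPM and changed by -0.74 ± 0.15 (SE, adjusted p = 0.00253) and -0.45 ± 0.16 (SE, adjusted p = 0.0369). The knockout call of Dhcr7 was lost without replicate 2 of the untreated knockout cells (-0.27). It was also lost without replicate 1 (-0.39) or 2 (-0.51) of the treated knockout cells and without either treated parental library.

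Ebp, the sterol isomerase, was at 77.2 and 73.2 CPM in untreated and 54.4 and 55.1 in treated parental cells, and 35.5 and 33.7 in untreated and 28.2 and 28.6 in treated knockout cells. Treated libraries lay below untreated ones in each line, and all 4 knockout libraries lay below all 4 parental ones. TGF-β changed Ebp by -0.46 ± 0.09 (SE, adjusted p = 0.00177) in parental cells. In knockout cells the change was -0.29 ± 0.09 (SE, adjusted p = 0.0300). This call was lost in DESeq2 (adjusted p = 0.0803), with no count filter and when only the knockout groups were fitted. It was also lost on leaving out any 1 of the 4 knockout libraries or either treated parental library.

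Tm7sf2 and Hsd17b7 were the enzymes that did not fall in both lines. Tm7sf2, a sterol reductase of the same region of the pathway, was at 9.49 and 13.6 CPM in untreated and 7.84 and 6.85 in treated parental cells, and 7.24 and 9.88 in untreated and 6.77 and 9.87 in treated knockout cells. Its treated parental libraries were lower than the untreated ones, and in knockout cells treated and untreated overlapped. The parental change of -0.64 ± 0.24 (SE, adjusted p = 0.0476) was lost without replicate 2 of the untreated parental cells (-0.37, adjusted p = 0.30) and without replicate 1 (-0.75, adjusted p = 0.0988) or 2 (-0.56, adjusted p = 0.204) of the treated ones, with upper quartile scaling (adjusted p = 0.0581) and with a minimum count of 50 (adjusted p = 0.0512). The knockout value was -0.047 ± 0.24 (SE, adjusted p = 0.899). Hsd17b7, the ketoreductase of sterol demethylation, was at 49.01 and 53.1 CPM in untreated and 54.3 and 59.1 in treated parental cells, and 36.5 and 34.99 in untreated and 45.7 and 37.3 in treated knockout cells. Treated libraries were slightly higher than untreated ones in both lines, with values of 0.15 ± 0.11 (SE, adjusted p = 0.321) and 0.22 ± 0.12 (SE, adjusted p = 0.162) that did not pass.

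**Figure D3:**
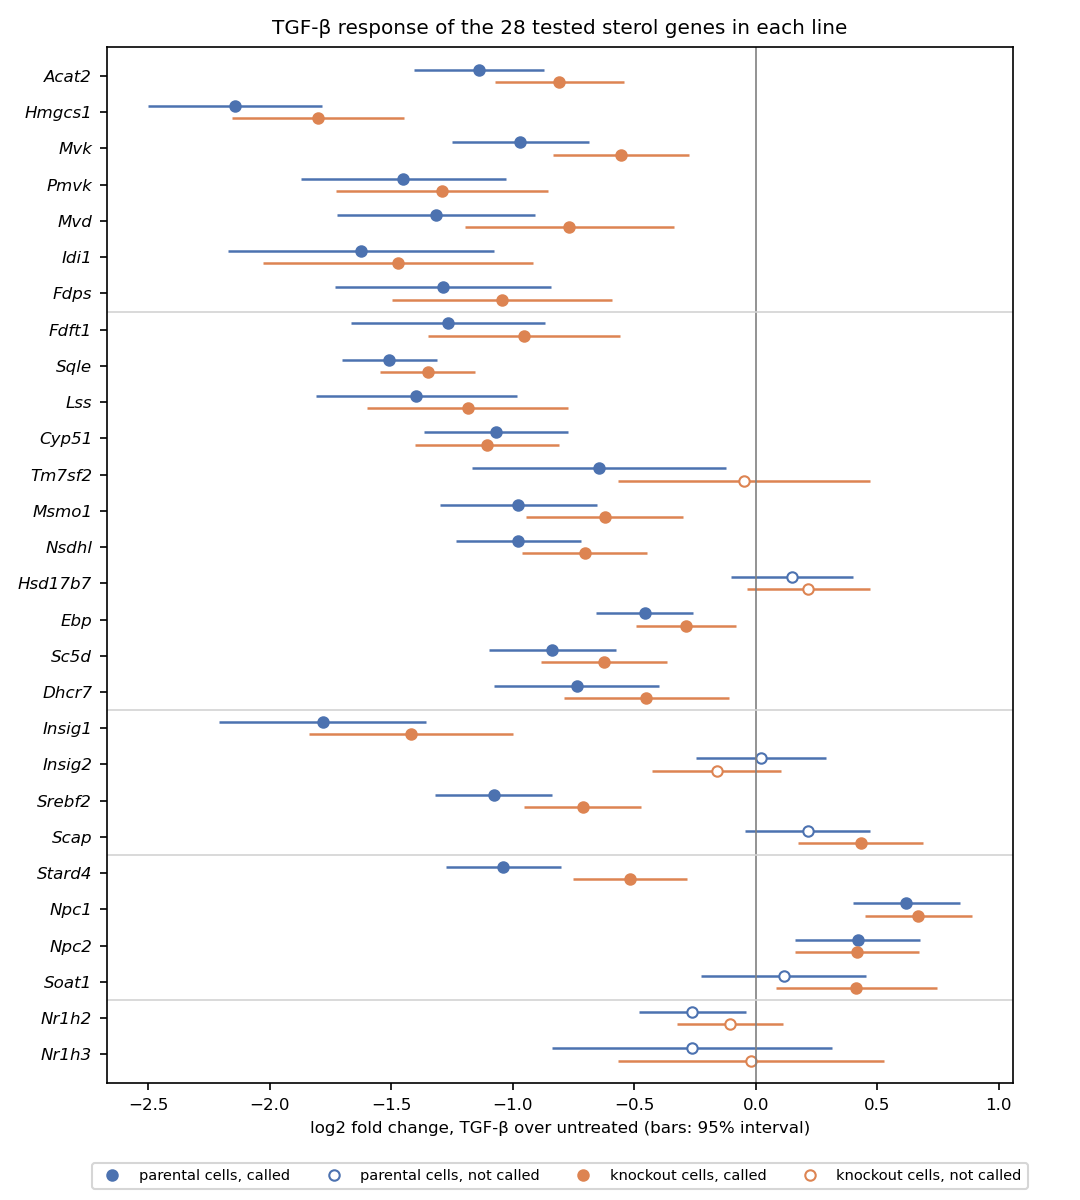
Log2 fold change of treated over untreated cells for the 28 tested members, with 95% intervals, in parental (blue) and knockout (orange) cells, filled where called. Hmgcs1 lies farthest to the left in both lines, and Npc1 and Npc2 lie to the right of 0.

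Among the control genes Insig1 and Srebf2 fell, and Insig2 and Scap did not. Insig1, itself a target of SREBP2, was at 161 and 229 CPM in untreated and 57.9 and 55.3 in treated parental cells, and 126 and 185 in untreated and 53.3 and 63.4 in treated knockout cells. Its treated libraries did not overlap the untreated ones, and it changed by -1.78 ± 0.19 (SE, adjusted p = 1.79e-05) in parental, 3.44-fold lower, and by -1.42 ± 0.19 (SE, adjusted p = 9.97e-05) in knockout cells. Its relative Insig2, at 27.4 to 34.3 CPM in all 8 libraries, overlapped between treated and untreated cells, with changes of 0.022 ± 0.12 (SE, adjusted p = 0.908) and -0.16 ± 0.12 (SE, adjusted p = 0.325).

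Srebf2 was at 443 and 510.3 CPM in untreated and 225 and 226 in treated parental cells, and 324 and 369 in untreated and 193 and 230.0 in treated knockout cells. Treated libraries lay below untreated ones without overlap in both lines. The change was -1.08 ± 0.11 (SE, adjusted p = 1.10e-05) in parental and -0.71 ± 0.11 (SE, adjusted p = 2.80e-04) in knockout cells. Scap was at 49.7 and 42.5 CPM in untreated and 56.3 and 50.7 in treated parental cells, and 45.5 and 39.8 in untreated and 54.9 and 60.2 in treated knockout cells. Its treated libraries were all above the untreated ones of their line, by 0.21 ± 0.12 (SE, adjusted p = 0.168) in parental cells, not past the threshold, and 0.43 ± 0.12 (SE, adjusted p = 0.0109) in knockout cells. The rise in knockout cells was lost without replicate 2 of the untreated cells (adjusted p = 0.0823) or replicate 2 of the treated cells (adjusted p = 0.0812).

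Among genes of transport and storage, Stard4 fell while Npc1 and Npc2 rose. Stard4, a cytosolic sterol carrier, was at 356 and 426 CPM in untreated and 187 and 193 in treated parental cells, and 309 and 367 in untreated and 236 and 237 in treated knockout cells. Treated libraries were lower in both lines without overlap, with log2 changes of -1.04 ± 0.11 (SE, adjusted p = 1.29e-05) in parental and -0.52 ± 0.11 (SE, adjusted p = 0.00225) in knockout cells. Npc1, the membrane protein through which cholesterol leaves lysosomes, was at 56.7 and 59.6 CPM in untreated and 89.1 and 89.6 in treated parental cells, and 61.3 and 73.3 in untreated and 109 and 105 in treated knockout cells. The treated libraries were the higher ones in both lines, by 0.62 ± 0.10 (SE, adjusted p = 4.41e-04) and 0.67 ± 0.10 (SE, adjusted p = 2.20e-04).

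Npc2, the soluble lysosomal carrier that hands cholesterol to Npc1, was at 82.4 and 103 CPM in untreated and 122 and 126 in treated parental cells, and 87.7 and 103 in untreated and 124 and 131 in treated knockout cells. Treated libraries exceeded untreated ones, by 0.42 ± 0.12 (SE, adjusted p = 0.0129) in parental and 0.42 ± 0.12 (SE, adjusted p = 0.0132) in knockout cells. The parental call was lost without replicate 1 of the untreated cells (0.26, adjusted p = 0.119) and without replicate 1 (adjusted p = 0.0525) or 2 (adjusted p = 0.0811) of the treated cells. The knockout call was lost without replicate 1 of the untreated (adjusted p = 0.0966) or replicate 2 of the treated cells (adjusted p = 0.0797).

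Soat1, the enzyme that esterifies cholesterol for storage, was at 24.5 and 34.5 CPM in untreated and 31.2 and 32.5 in treated parental cells, and 30.6 and 37.3 in untreated and 45.6 and 44.95 in treated knockout cells. The treated knockout libraries were the highest of the 8, and in parental cells treated and untreated libraries overlapped. The change was 0.11 ± 0.16 (SE, adjusted p = 0.593) in parental and 0.41 ± 0.15 (SE, adjusted p = 0.0461) in knockout cells. The knockout call was lost without replicate 1 of the untreated cells (0.28, adjusted p = 0.24) and without replicate 1 (adjusted p = 0.161) or 2 (adjusted p = 0.128) of the treated cells.

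The liver X receptors were not called. Nr1h2, the widely expressed receptor LXRβ, was at 39.8 and 42.3 CPM in untreated and 35.7 and 32.8 in treated parental cells, and 36.1 and 37.7 in untreated and 33.97 and 34.7 in treated knockout cells. Its treated libraries lay below the untreated ones in both lines. Its values were -0.26 ± 0.10 (SE, adjusted p = 0.0561) in parental and -0.10 ± 0.10 (SE, adjusted p = 0.447) in knockout cells. Nr1h3, or LXRα, was at 8.38 and 5.33 CPM in untreated and 5.94 and 5.54 in treated parental cells, and 9.32 and 5.85 in untreated and 6.98 and 7.98 in treated knockout cells. Its untreated replicates differed by more than the treated and untreated means did, with -0.26 ± 0.26 (SE, adjusted p = 0.463) and -0.019 ± 0.25 (SE, adjusted p = 0.962).

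The exporters and Mylip were at or near the limit of counting. Abca1 had 0 and 0 counts in untreated and 1 and 1 in treated parental libraries, and 2 and 2 in untreated and 0 and 1 in treated knockout libraries. Abcg1 had 2 and 2, then 5 and 2 in parental cells, and 0 and 3, then 7 and 7 in knockout cells. Mylip had no count in the 4 untreated libraries and 3, 5, 4 and 5 in the treated ones. Summed over a group, Mylip was at least 2.7-fold higher with TGF-β in parental and at least 3.36-fold higher in knockout cells, against a floor of 3 counts over the group. These 3 genes did not enter the test at the count filter used. With no filter Mylip was called in both lines and Abcg1 in knockout cells. No change of Abca1 was detectable at this depth.

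The second comparison asked how untreated knockout cells differed from untreated parental cells. It uses the same untreated libraries as the TGF-β comparisons, so its values are set beside those and not counted as separate evidence. Of the 28 tested members 9 were lower and none higher in knockout cells, with a median log2 difference of -0.32, against 8.94% of all tested genes lower and 4.72% higher (13.7% called). Of the 9, 8 were synthesis enzymes, Hmgcs1, Mvk, Pmvk, Mvd, Sqle, Msmo1, Hsd17b7 and Ebp, and the other was Srebf2. Among the 18 enzymes 17 had a negative value, with a median of -0.42. The summed level of the 18 enzymes was 86.0% of the parental sum, and its libraries overlapped between the lines. Cyp51, which did not differ between the lines, was the largest part of both sums. Its means were 2931 CPM of 5610.1 in parental and 2976 of 4823 in knockout cells. The percentage and the overlap therefore speak mostly of Cyp51 and not of the other enzymes. The count of 9 moved with the fit. It was 5 when only the untreated groups were fitted, with Hmgcs1 (adjusted p = 0.0965), Mvk (0.0964), Pmvk (0.133) and Srebf2 (0.0581) lost. It was 13 with no count filter, where Fdps, Lss, Nsdhl, Dhcr7 and Insig1 were called lower and Mvk was lost (adjusted p = 0.0621).

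The differences at Mvd and Ebp were the largest. Mvd, at 15.9 and 18.6 CPM against 33.4 and 48.5 in parental cells, differed by -1.24 ± 0.18 (SE, adjusted p = 9.84e-04), 2.37-fold lower. Ebp, at 35.5 and 33.7 against 77.2 and 73.2 CPM, differed by -1.12 ± 0.09 (SE, adjusted p = 2.06e-05), 2.17-fold lower. For both genes the lines did not overlap. Msmo1, at 212 and 275 against 362 and 490.3 CPM, differed by -0.81 ± 0.15 (SE, adjusted p = 0.00351) and also did not overlap.

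Hmgcs1, Pmvk and Srebf2 were lower in every knockout library than in every parental library, with log2 differences of -0.66 ± 0.16 (SE, adjusted p = 0.0161), -0.60 ± 0.18 (SE, adjusted p = 0.0492) and -0.46 ± 0.11 (SE, adjusted p = 0.0160). Sqle differed by -0.49 ± 0.09 (SE, adjusted p = 0.00337), Hsd17b7 by -0.51 ± 0.12 (SE, adjusted p = 0.0123) and Mvk by -0.42 ± 0.12 (SE, adjusted p = 0.0446), again without overlap. Idi1, Fdps, Nsdhl, Dhcr7, Nr1h2 and Npc1 were not called and did not overlap either, with Npc1 higher in knockout cells. Cyp51 was at 0.022 with a 95% interval of -0.27 to 0.32.

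Several of these calls rested on 1 library. Replicate 2 of the untreated parental cells was higher than replicate 1 for 15 of the 18 enzymes, with a median log2 difference of -0.41 (replicate 1 minus replicate 2), a gap that 14.9% of all tested genes exceeded between these libraries. In the other 3 groups the median had the same sign (-0.059 to -0.21), with replicate 1 higher for 3 or 4 of the 18 enzymes. The mitochondrial share was higher in replicate 1 in all 4 groups, and its part in these gaps was not tested. Without replicate 2 of the untreated parental cells 4 members were called (Mvd, Sqle, Msmo1 and Ebp), the value of Hmgcs1 was -0.37 (adjusted p = 0.0942) and that of Pmvk -0.29 (adjusted p = 0.349). Srebf2 (adjusted p = 0.0888), Mvk (0.091) and Hsd17b7 (0.0525) were lost as well. Without replicate 1 of the untreated parental cells 12 members were called, Mvk not among them (adjusted p = 0.155). Without replicate 1 of the untreated knockout cells 5 members were called, with Hmgcs1 (adjusted p = 0.0879), Mvk (0.175), Pmvk (0.167) and Srebf2 (0.0957) lost. Without replicate 2 of the untreated knockout cells 8 were called, with Mvk (adjusted p = 0.0922), Pmvk (0.0745) and Hsd17b7 (0.0521) lost. Pmvk was also lost on leaving out any 1 treated library, and Mvk on leaving out either treated parental library. Mvk was not called by DESeq2 (adjusted p = 0.0945), nor Pmvk with the size factors of DESeq2 in edgeR (adjusted p = 0.0503) or upper quartile scaling (adjusted p = 0.0601).

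Position on the chromosome also moved with these differences. Over all tested genes the knockout to parental median was -0.47 on chromosome 8 and -0.28 on chromosome 3, and -0.17 on chromosome 15, while the other chromosomes lay between -0.048 and 0.068. Mvd and Msmo1 lie on chromosome 8, Pmvk on 3, Sqle and Srebf2 on 15, and Ebp on X. The 50 tested genes nearest to each had medians of -0.84 (Mvd), -0.77 (Ebp), -0.33 (Msmo1), -0.31 (Pmvk), -0.29 (Srebf2) and -0.14 (Sqle). Set against those neighbours, the members were lower by a smaller amount, at -0.40 for Mvd, -0.35 for Ebp, -0.47 for Msmo1, -0.30 for Pmvk, -0.17 for Srebf2 and -0.34 for Sqle. The neighbours of Hmgcs1 (0.057), Mvk (0.0060) and Hsd17b7 (-0.037) were near 0. Cyp51 (chromosome 5), whose own value was 0.022, lay among neighbours with a median of 0.46, and against them it was at -0.43, so that all 18 enzymes were then negative. For the 10 enzymes whose neighbours lay within 0.1 of 0, all 10 values were negative, 3 were called and the median was -0.37. That limit was chosen after the values were seen, and all 10 values share the same untreated parental libraries. Between the treated lines the same limit left 7 enzymes, of which 3 were negative and 0 called, with a median of 0.049. Set against their neighbours, 12 of the 18 enzymes were negative there. The part of the regional shifts in the members' differences was not tested.

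**Figure D4:**
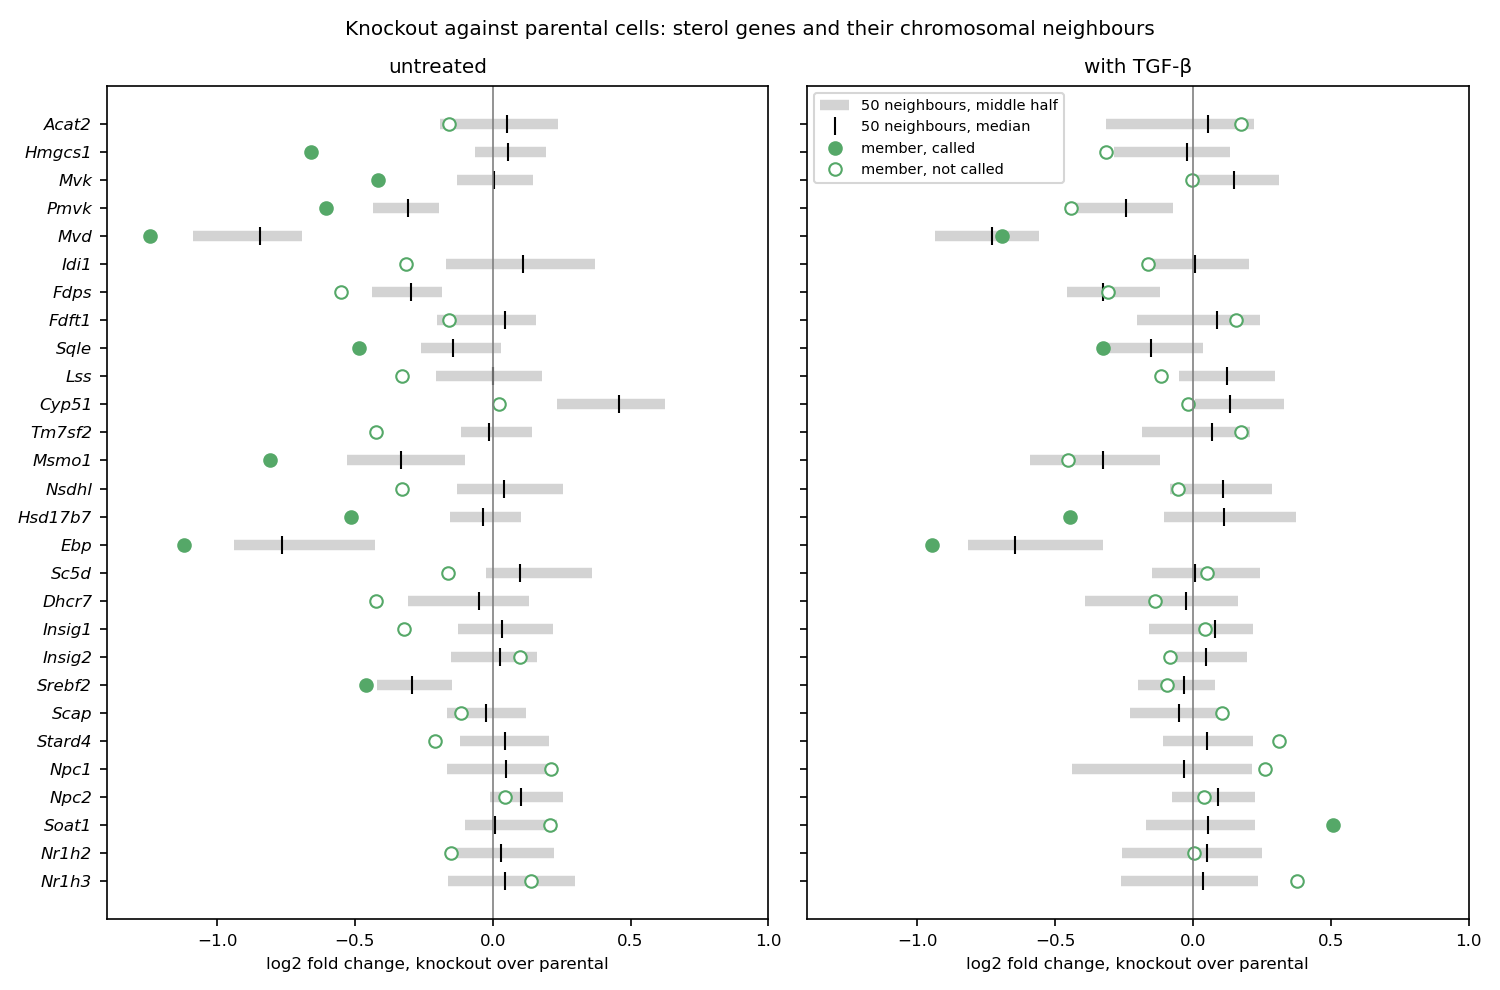
Log2 fold change of knockout over parental cells (horizontal axes) for each tested member (green circles, filled where called) beside its 50 nearest tested genes (black tick, the median, and grey bar, the middle 50%), untreated at left and with TGF-β at right. Mvd and Ebp are low together with their neighbours, while Hmgcs1 and Hsd17b7 are low in untreated cells with neighbours near 0.

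With TGF-β in both lines, 5 of the 28 members differed between knockout and parental cells, 4 lower and 1 higher, against 11.1% of all tested genes lower and 6.82% higher (17.9% called). The median over the 28 was -0.036 and over the 18 enzymes -0.15, and the summed level of the enzymes was 92.3% of the parental sum. Cyp51 was again the largest part of both sums, with means of 1398 CPM in parental and 1382 in knockout cells. Ebp differed by -0.95 ± 0.09 (SE, adjusted p = 6.24e-05), Mvd by -0.69 ± 0.20 (SE, adjusted p = 0.0327) and Hsd17b7 by -0.45 ± 0.12 (SE, adjusted p = 0.0196). Sqle differed by -0.33 ± 0.09 (SE, adjusted p = 0.0251). Soat1 was the member that was higher, by 0.51 ± 0.15 (SE, adjusted p = 0.0407). For these 5 the lines did not overlap. Hmgcs1, Pmvk, Fdps, Lss, Msmo1, Dhcr7, Insig2, Stard4, Npc1 and Nr1h3 were not called and did not overlap either. Against its neighbours, at a median of -0.73, the value of Mvd was 0.036, and that of Ebp was -0.30. Hmgcs1 was at -0.32 ± 0.16 (SE, adjusted p = 0.207) and Srebf2 at -0.093 ± 0.11 (SE, adjusted p = 0.628), and neither passed. Other fits called more members. Msmo1 (lower) and Stard4 (higher) were also called by DESeq2 (adjusted p = 0.0265 and 0.0495), with no count filter (1.21e-04 and 0.0149) and when only the treated groups were fitted (8.56e-04 and 0.00769). Hmgcs1 was called lower with no count filter (adjusted p = 0.0121) and in the fit of the treated groups (0.0109), and the latter also called Npc1 higher (0.0285). Leaving out any 1 of the 4 untreated libraries gave 7 members, with Msmo1 and Stard4 gained.

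Of these 5 calls Ebp was the one kept on leaving out each of the 4 treated libraries in turn. Without replicate 1 or replicate 2 of the treated parental cells it was the only member called. Mvd was then at an adjusted p of 0.126 and 0.131, Sqle at 0.0843 and 0.204, Hsd17b7 at 0.067 and 0.162 and Soat1 at 0.21 and 0.151. Without replicate 1 of the treated knockout cells, Mvd (-0.50, adjusted p = 0.224), Sqle (adjusted p = 0.11) and Soat1 (adjusted p = 0.156) were lost. Without replicate 2, Sqle (adjusted p = 0.125), Hsd17b7 (-0.29, adjusted p = 0.205) and Soat1 (adjusted p = 0.136) were lost.

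The third question was whether TGF-β acted differently on these genes in the 2 lines, tested as the knockout response minus the parental response. No member was called, against 2.4% of all tested genes (1.25% with a higher and 1.15% with a lower value in knockout cells), by edgeR's quasi-likelihood test or by DESeq2. Unadjusted p-values under 0.05 were found for 3 members by edgeR and 2 by DESeq2. The difference for Stard4 was 0.52 ± 0.15 (SE, 95% interval 0.19 to 0.85, adjusted p = 0.116). That for Mvk was 0.41 (95% interval 0.019 to 0.81, adjusted p = 0.331) and that for Srebf2 0.37 (95% interval 0.028 to 0.70, adjusted p = 0.314). Stard4 was called without replicate 1 of the untreated parental cells (adjusted p = 0.0421), without replicate 2 of the untreated knockout cells (adjusted p = 0.0408) and with no count filter (adjusted p = 0.00463). The value was positive for 25 of the 28 members, with a median of 0.24 beside 0.008 for all tested genes. The same untreated parental libraries enter all 28. Over the synthesis enzymes the median was 0.257. It was 0.058 without replicate 2 of the untreated parental cells and 0.432 without replicate 1 of them. Leaving out a library of another group gave 0.172 to 0.388. The size of this median thus depended most on the untreated parental libraries. For Hmgcs1 the difference was 0.34 with a 95% interval of -0.15 to 0.83, and for Cyp51 -0.039 with -0.45 to 0.38.

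Other genes of sterol handling were taken from a list of 39, of which 33 were tested. In parental cells 15 of them fell with TGF-β and 7 rose, with a median of -0.24, beside 21.2% and 21.3% of all tested genes. In knockout cells 13 fell and 6 rose, with a median of -0.26, beside 20.6% and 20.9% of all tested genes. The rises were thus near or below the share over all genes in both lines. Cyb5a, the cytochrome that passes electrons to sterol oxidases, changed by -2.33 ± 0.11 (SE, adjusted p = 2.22e-08) in parental and -2.40 in knockout cells. Lrp1, a large endocytic lipoprotein receptor, rose by 1.85 ± 0.10 (SE, adjusted p = 4.76e-08) and 1.68. Gramd1b, which moves cholesterol from the plasma membrane to the endoplasmic reticulum, changed by -1.41 ± 0.10 (SE, adjusted p = 4.23e-07) and -1.23. Nceh1, a cholesteryl ester hydrolase, changed by -1.14 ± 0.08 (SE, adjusted p = 6.75e-07) and -1.11. Of the 12 tested genes of uptake, transport and storage on this list 9 fell and 2 rose in parental cells, and 8 fell and 2 rose in knockout cells. Among 10 tested genes of SREBP processing and degradation 2 fell and 3 rose in parental cells, where 42.5% of all tested genes were called. Between the lines, 5 of the 33 were lower and 3 higher in untreated knockout cells (8.94% and 4.72% of all tested genes), and 4 lower and 3 higher with TGF-β (11.1% and 6.82%), while none was called for a difference of response by edgeR (2 at an unadjusted p under 0.05).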

How the data were processed

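PolyA RNA was sequenced from 8 libraries. The deposited values are raw read counts per gene, 1 table for each library. Per the submitters' processing notes STAR 2.7.1a, featureCounts 1.6.2, DESeq2 1.26.0 and the builds GRCm38 and mm10 were used. No source used here gives the annotation release, strand setting or filters. A table of normalized values deposited beside the counts was not used.

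Genes were kept by filterByExpr (minimum count 10), which left 14641 of 55450 identifiers. Counts were scaled by TMM and fitted in edgeR 4.0.16 (R 4.3.3) with a mean for each group, all 8 libraries in 1 fit (4 residual degrees of freedom), using the quasi-likelihood test and Benjamini-Hochberg adjustment over all genes tested. A gene is called at an adjusted p under 0.05. Intervals are 95% intervals. Colours in the map of the enzymes use log2(CPM + 0.5). The procedure was tested in 1 simulation, with the changed genes drawn from abundant ones. It recovered 97% of changes of log2 size 1 and 100% of those of size 2. Of 216 genes called 19 were false, a larger share than the threshold of 0.05. In a comparison without changes 4 genes were called. Depth of 17007268 to 21311831 counts limits precision for genes of a few counts, for which a floor of 3 counts was used, covering counting error only.

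Alternatives were other scalings, DESeq2 1.42.0, other count filters, a replicate block, fits on the compared groups and leaving out each library. Differences from the 50 nearest tested genes were added after seeing the data. Values in every library are given for the members with the largest changes (10 for TGF-β in parental cells, 6 and 4 for the untreated and treated knockout comparisons), the export and sensing genes and others that the text turns on. The 4 other pathway genes named had the lowest adjusted p for TGF-β in parental cells. The members and lists were chosen with earlier results of these data known. Some genes of the pathway are not reported here.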

Additional observations from a re-analysis of the deposited data

How the results depend on the processing

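No called member changed sign under another scaling, tool, filter, block or set of libraries. With the fold change taken against the 50 nearest genes, Mvd in treated knockout cells turned from -0.69 to 0.036. Fitting only the groups compared gave 1111 genes and 5 members called between untreated knockout and parental cells (2000 and 9 in the report) and 9 members between treated ones (5 in the report), against 8 with no count filter. For the difference of responses (352 genes, 0 members), no count filter gave 855 genes and 1 member, and the replicate block 679 genes and 1 member. The cause was not tested in each case. Leaving out 1 library gave 4466 to 6526 genes and 20 to 22 members for TGF-β in parental cells, 4701 to 6439 and 18 to 23 in knockout cells, 1476 to 1813 and 4 to 12 for untreated knockout against parental cells, 1188 to 2922 and 1 to 7 for treated ones, and 120 to 421 and 0 to 1 for the difference. A group left with 1 library was assumed to vary like the others. Replicate numbers were not used as pairs. The labels give no shared batch, and the deviations of same-numbered libraries correlated at 0.406 between the untreated groups, 0.188 and 0.101 for 2 other pairs of groups and 0.024 to 0.099 for the remaining 3, so not every pair exceeded 0.1. With the replicate block 23, 23, 12, 7 and 1 members were called in the 5 comparisons. The block added Nr1h2 for TGF-β in parental cells (-0.26, adjusted p = 0.0437), Fdps, Nsdhl and Dhcr7 between untreated lines, Msmo1 and Stard4 between treated lines, and Stard4 for the difference (adjusted p = 0.0291). Abca1, Abcg1 and Mylip lay at or below 7 counts a library, where depth limits what could be seen.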
